A study of Petromyzon marinus with 2 samples.

Results

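The cyclic nucleotide-gated channel genes of the adult sea lamprey retina are 3 annotated features, CNGA3 (MSTRG.996), CNGB1-1 (MSTRG.4782) and CNGB1 (MSTRG.11625). They were taken by their identifiers, out of 24979 genes in the count tables, and no measured value entered the choice. Among the genes given a symbol here, no other carried one of the cyclic nucleotide-gated family. A further 16990 genes were given no symbol and could not be searched by name, so other members may be among them. The study reports symbols for a larger share of its genes than were named here.

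The data were single-cell RNA counts from dissociated retinas of adult sea lamprey (Petromyzon marinus), collected as 2 biological replicates with no treatment, genotype or time contrast. Cells were limited by a minimum of unique molecular identifiers (UMIs, each standing for 1 captured RNA molecule) and by a lower and an upper limit on detected genes. This left 12903 cells of replicate 1 and 15936 cells of replicate 2, with medians of 4929 and 5562 UMIs per cell. The replicates shared 83 cell barcodes, and none of the photoreceptor-gated cells described below was among them. Labels of the samples name a sort of the cells, so shares of cell types need not be those of the intact retina.

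Cyclic nucleotide-gated channels are the cation channels that open on binding cyclic GMP in the outer segment of a photoreceptor. Light lowers cyclic GMP, the channels close, and the cell hyperpolarises. Each channel is a tetramer of alpha subunits, which form a pore on their own, and beta subunits, which modify it. In jawed vertebrates rods use CNGA1 with CNGB1 and cones use CNGA3 with CNGB3. In the orthology given by the study, lamprey CNGA3 belongs to the group that holds CNGA1, CNGA2 and CNGA3 of jawed vertebrates, CNGB1 is placed with CNGB1, and CNGB1-1 is placed with CNGB3. The genes given a symbol here therefore held 1 alpha subunit and 2 beta subunits, and other subunits among the unnamed genes were not looked for.

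Photoreceptors were gated without any channel gene. A cell passed when at least 2 of 4 genes had a UMI and these 4 together made up at least 1 per 1000 of its UMIs. The genes were RCVRN (recoverin, the calcium sensor that restrains rhodopsin kinase), CDHR1 (a cadherin of the outer segment base), RBP3 (the retinoid-binding protein of the interphotoreceptor matrix) and ANKRD33B (an ankyrin-repeat protein related to a photoreceptor regulator). The gate held 55 cells, 20 in replicate 1 and 35 in replicate 2, which is 0.191% of all cells (exact 95% binomial interval 0.144 to 0.248). All intervals given here cover counting error only and treat neither cells nor UMIs as animals. The gated cells had a median of 2845 UMIs (876 to 20070), against 5298 over all cells, so a gene was less easily detected in them. The label of photoreceptor was checked on genes that did not set the gate. AANAT, the rate-limiting enzyme of melatonin synthesis, stood at 576 UMIs per 1000000 UMIs of the same cells (CPM) in gated cells and 0.669 CPM outside, and GAD1, the GABA-synthesising enzyme of inhibitory neurons, at 135 CPM in gated cells and 1355 CPM outside. Of 49 photoreceptor symbols looked for by name, 3 were found, AANAT, EYS and ADCY1. EYS stood at 88.1 CPM in gated cells and 34.5 CPM outside, and ADCY1 at 160 and 85.5 CPM in the same order. Neither EYS nor ADCY1 was called in the test of gated against other cells given below. CHTF18, used in an earlier analysis of these data to mark a bipolar-like group, stood at 116 CPM in gated cells and 12.8 CPM outside. Whether cells with CHTF18 are bipolar cells was not tested. The part of CHTF18 in the results on gated cells was not tested.

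CNGB1-1 was the most concentrated of the 3 genes. It gave 492 UMIs in 141 cells, 198 UMIs in 61 cells of replicate 1 and 294 UMIs in 80 cells of replicate 2, a mean of 2.40 CPM over all cells. The highest cell had 34 UMIs, and the 34 cells with 5 or more UMIs held 73.4% of all CNGB1-1 UMIs. Most of the other positive cells, 92 of the 141 in all, had 1 UMI. CNGA3 and CNGB1 had UMIs in more cells than CNGB1-1 and lower maxima. CNGA3 gave 1042 UMIs in 987 cells, 504 UMIs in 476 cells of replicate 1 and 538 UMIs in 511 cells of replicate 2 (5.08 CPM), with 95.6% of positive cells at 1 UMI and no cell above 5. CNGB1 gave 1696 UMIs in 1135 cells, 773 UMIs in 557 cells of replicate 1 and 923 UMIs in 578 cells of replicate 2 (8.27 CPM), with 73.7% of positive cells at 1 UMI and a maximum of 11.

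**Figure D1:**
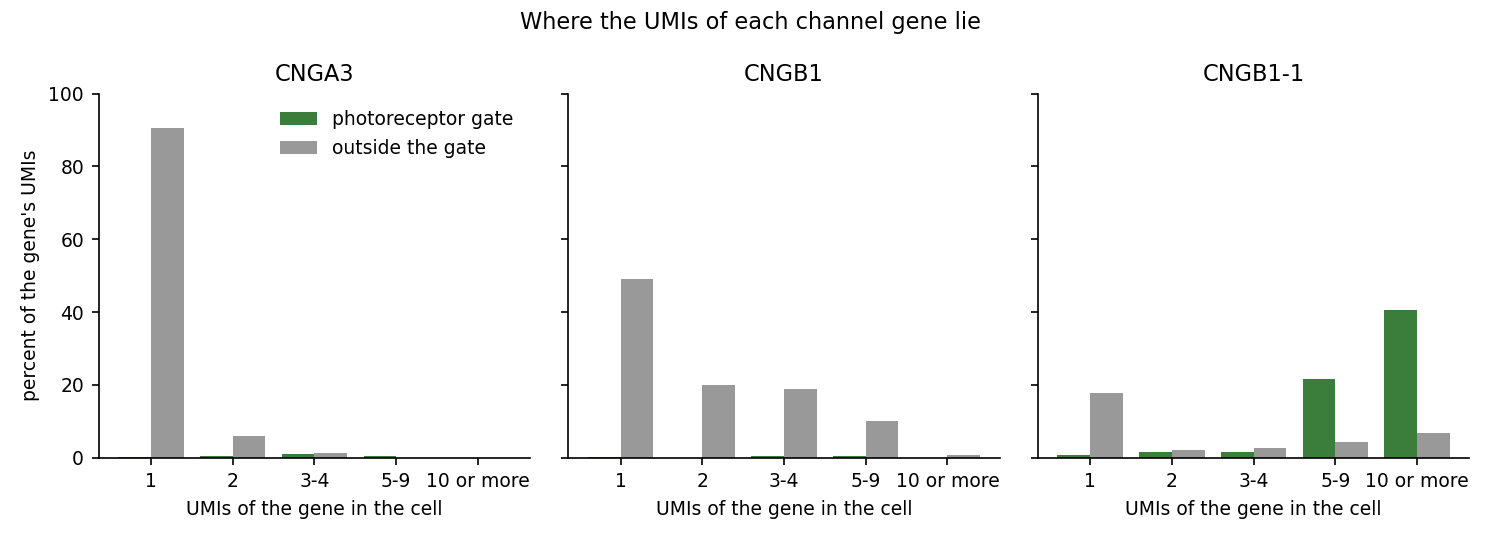
Percent of the UMIs of each channel gene (vertical axis) by the number of UMIs that the cell holding them had (horizontal axis), both replicates together, for gated photoreceptors in green and cells outside the gate in grey. CNGB1-1 UMIs lay mostly in gated cells with 5 or more UMIs, whereas most CNGA3 and CNGB1 UMIs lay in cells outside the gate that had few.

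Among gated photoreceptors CNGB1-1 was the channel gene of most cells. Shares given for gated cells depend on the gate and need not be those of all photoreceptors. It had a UMI in 37 of 55 gated cells (67.3%, 53.3 to 79.3), 12 of 20 in replicate 1 and 25 of 35 in replicate 2, and in 104 cells outside the gate (0.361%). Of the 37 gated cells, 27 had 5 or more UMIs and 4 had a single one. The gate held 66.1% of all CNGB1-1 UMIs, 52.5% in replicate 1 and 75.2% in replicate 2. Its level was 1098 and 990 CPM in the gated cells of replicates 1 and 2, against 1.07 and 0.623 CPM outside. After every cell was thinned to 500 UMIs, so that depth was equal, it was still present in 20 of 55 gated cells (36.4%) and in 0.101% of the others.

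CNGA3 and CNGB1 were present in a minority of gated cells. CNGA3 had a UMI in 9 of 55 gated cells (16.4%, 7.77 to 28.8), 4 of 20 in replicate 1 and 5 of 35 in replicate 2, and in 978 cells outside (3.40%). Its level was 137 and 44.8 CPM in the gated cells of the 2 replicates, against 5.60 and 4.51 CPM outside. CNGB1 had a UMI in 6 of 55 gated cells (10.9%, 4.11 to 22.3), 3 in each replicate, and in 1129 cells outside (3.92%). Its level was 127 and 35.8 CPM in gated cells, against 8.68 and 7.81 CPM outside. Both genes stood higher in gated cells than outside in each replicate, and how many other genes did so was not counted. The gated levels rest on 13 and 10 CNGA3 UMIs and 12 and 8 CNGB1 UMIs in replicates 1 and 2. The gate held only 2.21% of CNGA3 UMIs and 1.18% of CNGB1 UMIs. ANKRD33B, a gate gene, had a UMI in 35 of the 37 gated cells with CNGB1-1 and in 3 of the 9 with CNGA3. The part of the gate genes in the shares of the channel genes was not tested.

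The difference between gated cells and all others was tested on counts summed per replicate, with the replicate as a block, by the quasi-likelihood test of edgeR, and p-values were adjusted by the Benjamini-Hochberg method over 16529 genes. Of these, 955 (5.78%) were called higher and 1908 (11.5%) lower in gated cells, and all 3 channel genes were called higher. CNGB1-1 had a log2 fold change of 10.14 ± 0.44 (SE, n = 2 replicates per arm, adjusted p = 1.74e-112 by edgeR). Here and below, the SE is the absolute fold change over the square root of edgeR's F statistic. It is not a spread measured between the replicates. CNGA3 had a log2 fold change of 3.80 ± 0.65 (adjusted p = 8.70e-08 by edgeR) and CNGB1 one of 2.88 ± 0.61 (adjusted p = 3.26e-05 by edgeR). With all cells thinned to 500 UMIs the calls of CNGA3 and CNGB1 were lost (both adjusted p = 0.839 by edgeR). In that thinned set CNGA3 was present in 1 of 55 gated cells. The 4 sums leave 1 residual degree of freedom, so the spread came largely from the trend over all genes.

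CNGB1-1 and CNGA3 were not found in the same gated cell. CNGB1-1 was the only channel gene in 36 gated cells, and a further cell had 34 CNGB1-1 UMIs with 1 CNGB1 UMI. CNGA3 was the only one in 4 cells and was joined by CNGB1 in 5 cells. The 6 CNGB1 cells were thus these 5 and the single cell dominated by CNGB1-1. No channel gene was detected in 9 gated cells, whose median depth was 1392 UMIs, so absence there was poorly measured. Over all 28839 cells, CNGA3 and CNGB1-1 were together in 2 cells and CNGB1 with CNGB1-1 in 5 cells, and no cell had 2 or more UMIs of both members of either pair. CNGA3 and CNGB1 were together in 61 cells, or 6.18% of CNGA3 cells against 3.86% of the rest. Those 61 cells had a median of 12858 UMIs, far above the median of all cells, and how far depth sets this overlap was not tested.

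**Figure D2:**
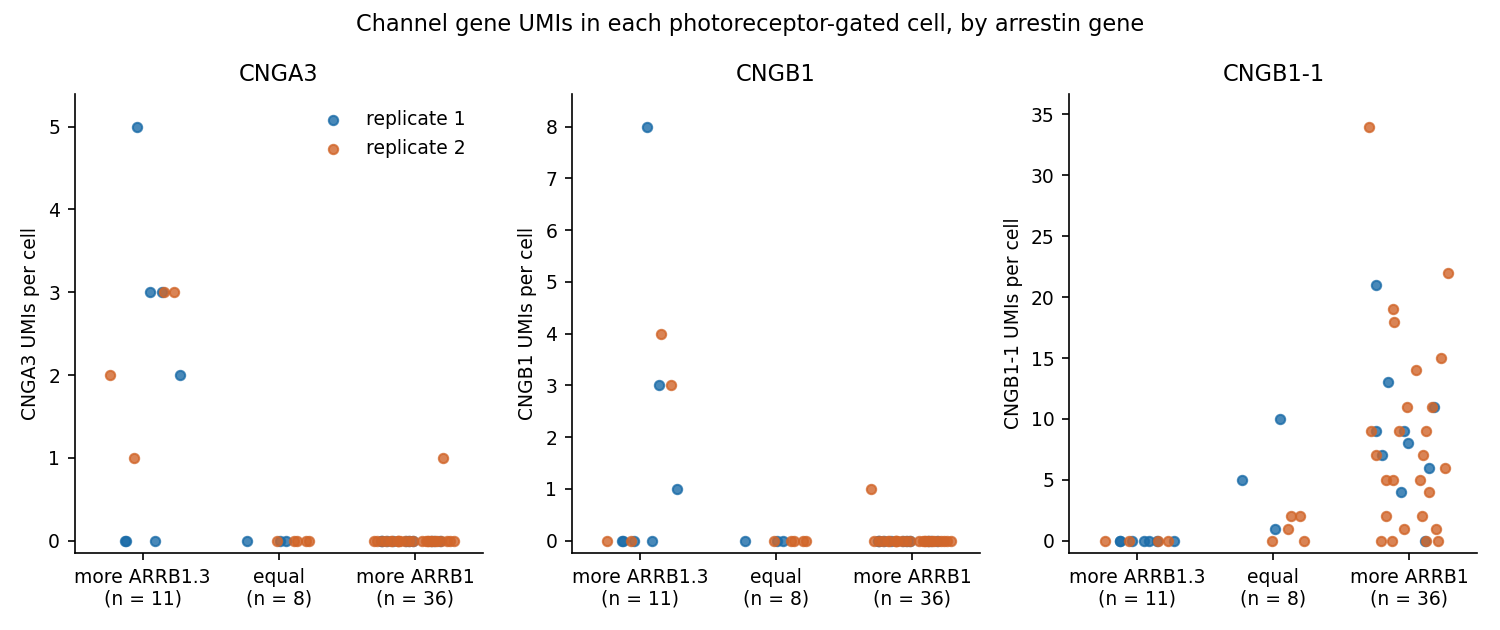
UMIs of CNGA3, CNGB1 and CNGB1-1 in each gated photoreceptor (1 point per cell, coloured by replicate), grouped by whether the cell had more ARRB1.3 UMIs (11 cells), equal numbers (8 cells) or more ARRB1 UMIs (36 cells). CNGA3 and CNGB1 UMIs lie in the group with more ARRB1.3, apart from 1 cell each, and CNGB1-1 UMIs lie in the others.

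Within the gate, CNGA3 and CNGB1 were mostly detected in cells with the arrestin gene ARRB1.3, and CNGB1-1 mostly in cells without it. Visual arrestins bind the light-activated, phosphorylated visual pigment and end its signal. The arrestin genes compared here were ARRB1.3 (MSTRG.12092) and ARRB1 (MSTRG.9439), neither of which set the gate. Both are annotated as beta-arrestin-1-like, and whether either acts on the visual pigment was not tested. ARRB1 was detected widely, with a UMI in 52.3% of all cells. Of the 9 gated cells with CNGA3, 8 had ARRB1.3, 6 had ARRB1 and 9 had RCVRN. Of the 37 gated cells with CNGB1-1, 5 had ARRB1.3, in each case a single UMI, 32 had ARRB1 and 28 had RCVRN. Of the 6 gated cells with CNGB1, 5 had ARRB1.3, 4 had ARRB1 and 6 had RCVRN. RCVRN was itself a gate gene, so its presence in gated cells is a description.

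The 9 gated cells with CNGA3 show the pattern cell by cell. In replicate 1 they had 5, 3, 3 and 2 CNGA3 UMIs, with 0, 8, 3 and 1 CNGB1 UMIs and 28, 115, 39 and 12 ARRB1.3 UMIs in the same order. In replicate 2 they had 3, 3, 2, 1 and 1 CNGA3 UMIs, with 4, 3, 0, 0 and 0 CNGB1 UMIs and 226, 35, 130, 0 and 11 ARRB1.3 UMIs. The cell without ARRB1.3 had 2 ARRB1 UMIs, and no other cell of the 9 had more ARRB1 than ARRB1.3. These cells stood at 12150 CPM of ARRB1.3, against 19.6 CPM in gated cells with CNGB1-1. ARRB1 was at 285 CPM in the cells with CNGA3 and 858 CPM in those with CNGB1-1. ANKRD33B was at 102 CPM in the cells with CNGA3 and 556 CPM in those with CNGB1-1, while CDHR1 stood at 530 and 658 CPM in the same order and RCVRN at 1305 and 1932 CPM. No test was run between sets defined by the channel genes themselves.

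For the test, gated cells with ARRB1.3 and no ARRB1 were compared with gated cells with ARRB1 and no ARRB1.3. This left 6 cells (4 in replicate 1 and 2 in replicate 2) against 32 cells (8 and 24). CNGB1-1 had 0 UMIs in the ARRB1.3 cells of both replicates, against 54 and 184 UMIs in the ARRB1 cells, where 27 of 32 cells were positive and the level was 1248 CPM. Set against the level that 3 UMIs over the ARRB1.3 cells would give (141 CPM), CNGB1-1 was at least 8.87-fold lower in ARRB1.3 cells. It was called lower by edgeR's quasi-likelihood test with the replicate block (adjusted p = 7.33e-07), in a comparison where 25 of 3881 genes (0.644%) were called lower and 14 (0.361%) higher. DESeq2 (adjusted p = 0.9995), thinning (adjusted p = 0.280 by edgeR), a gate on RCVRN alone (adjusted p = 0.921 by edgeR) and a gate without the limit on the share of UMIs (adjusted p = 0.195 by edgeR) did not make the call. In the last pair of gates 5 CNGB1-1 UMIs entered the ARRB1.3 cells of replicate 1. CNGA3 (3 and 5 UMIs in ARRB1.3 cells of the 2 replicates, against 0 and 1 in ARRB1 cells) and CNGB1 (3 and 3 against 0 and 1) were under the minimum of 10 UMIs and were not tested there.

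A second division, added after seeing the data, used which arrestin had more UMIs in a gated cell and so kept 9 of the 10 cells that held both, the other having equal numbers. In the 11 cells with more ARRB1.3, CNGA3 was in 8 cells with 22 UMIs (506 and 345 CPM in replicates 1 and 2) and CNGB1 in 5 cells with 19 UMIs (468 and 269 CPM). In the 36 cells with more ARRB1, each of these genes had 1 UMI in 1 cell (3.99 CPM). CNGB1-1 had 0 UMIs in the cells with more ARRB1.3 and 304 UMIs in 31 of the 36 cells with more ARRB1 (86.1%, 1416 and 1145 CPM). The summed levels of the 3 genes therefore differed between the sets in the same direction in both replicates. Single cells did not separate fully, given the 1 UMI each of CNGA3 and CNGB1 in cells with more ARRB1. How many other genes differed in this way was not counted. By edgeR's test on these sets, where 0.953% of 5037 genes were called higher and 1.79% lower in the cells with more ARRB1.3, all 3 were called. As the division followed the data, these calls are descriptive. DESeq2, thinning and the other gates were not run on these sets. CNGA3 had a log2 fold change of 6.0 ± 0.91 (adjusted p = 6.69e-09 by edgeR) and CNGB1 one of 5.74 ± 0.97 (adjusted p = 4.29e-07 by edgeR). CNGB1-1 was at least 20.9-fold lower in the cells with more ARRB1.3 (adjusted p = 2.51e-15 by edgeR), again against the level of 3 UMIs. RCVRN, present in both sets, was not called (log2 fold change −0.61, adjusted p = 0.680 by edgeR).

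**Figure D3:**
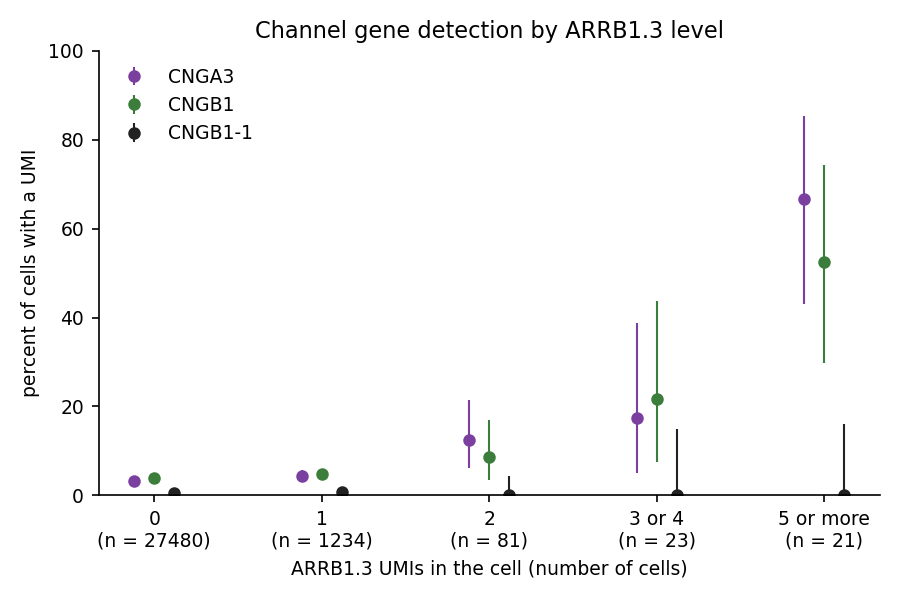
Percent of cells with a UMI of CNGA3, CNGB1 or CNGB1-1 (vertical axis) by the number of ARRB1.3 UMIs in the cell (horizontal axis), over all cells of both replicates, with exact 95% binomial intervals as bars. CNGA3 and CNGB1 reach 66.7% and 52.4% of cells at 5 or more ARRB1.3 UMIs, where CNGB1-1 is at 0 of 21 cells.

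The relation to ARRB1.3 was also seen outside the gate, in cells with several ARRB1.3 UMIs. Of the 1359 cells with ARRB1.3, 1234 had a single UMI of it. A cell outside the gate with 149 ARRB1.3 UMIs also had 16 RCVRN UMIs. Whether such cells are photoreceptors that missed the gate was not tested. Among all 27480 cells without ARRB1.3, CNGA3 had a UMI in 3.29%, CNGB1 in 3.84% and CNGB1-1 in 0.480%. In the 81 cells with 2 ARRB1.3 UMIs the shares were 12.3% for CNGA3 and 8.64% for CNGB1. Shares by ARRB1.3 level pool gated and other cells of both replicates. Cells with CNGA3 and with CNGB1 had medians of 8594 and 10346 UMIs, against 5298 over all cells. The part of depth in these shares was not tested. In the 21 cells with 5 or more ARRB1.3 UMIs, CNGA3 was in 14 (66.7%) and CNGB1 in 11 (52.4%), while CNGB1-1 was in none, which by a limit of 3 cells allows up to 14.3% of such cells to have a UMI and does not bound the share that express the gene. Of these 21 cells 10 were gated and 11 lay outside the gate, and 6 of the 11 had CNGA3 and 6 had CNGB1. ARRB1 could not be used in the same way over all cells, because it had a UMI in 15070 cells (52.3%). RCVRN divided the channel genes differently. In the 24 cells with 3 or more RCVRN UMIs, CNGB1-1 was in 16 (66.7%), CNGA3 in 7 (29.2%) and CNGB1 in 6 (25.0%), whereas in the 28633 cells with none CNGB1-1 was in 0.377%.

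The gated cells with CNGB1-1 were not uniform. By a division chosen after seeing the data, 14 of the 37 cells had more than 7000 UMIs and 23 had fewer. CNGB1-1 was at 1091 CPM in the deep cells and 1830 CPM in the shallow cells. All were chosen for having a CNGB1-1 UMI, and the part of that choice in the difference was not tested. RCVRN was at 2438 CPM in the deep cells, in all 14, and at 382 CPM in the shallow cells, in 14 of 23. RBP3 was at 109 CPM and CHTF18 at 192 CPM in the deep cells, with 37 CHTF18 UMIs in 11 cells, and both had 0 UMIs in the shallow cells. AANAT stood at 769 CPM in deep and 159 CPM in shallow cells, and CDHR1 at 655 and 668 CPM in the same order. The part that 2 cells under 1 barcode could play in the deep cells was not tested, since no doublet caller was run.

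Outside the gate, CNGB1-1 was in 104 cells with 167 UMIs. Of these cells 88 had a single UMI, 9 had 2 to 4, and 7 had 5 or more and together held 56 UMIs. Of these 7 cells CDHR1 was in 6, ANKRD33B in 4, RCVRN in 1 and ARRB1.3 in 1, so most carried a gate gene and fell short of the 2 genes or the share required. At the edge of the gate, only cells with UMIs of at least 2 gate genes were ranked by the share of these UMIs. Of these, the 5 cells just inside had at most 1.14 UMIs of the gate genes per 1000. They had 0, 8, 11, 0 and 0 CNGB1-1 UMIs, listed from the limit inwards. The 5 cells just outside had 0.979 to 0.755 per 1000 and 5, 0, 10, 0 and 3 CNGB1-1 UMIs, listed from the limit outwards. Cells with many CNGB1-1 UMIs thus lay on both sides of the limit.

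Cells outside the gate were also grouped by at least 2 UMIs of a marker gene of another retinal cell type, in sets that may overlap. Among these sets CNGB1-1 was highest in cells with SALL3, a gene of horizontal cells among others, where 35 UMIs lay in 6 of 279 cells (12.6 and 5.02 CPM in replicates 1 and 2). It was next in cells with SLC17A6, the vesicular glutamate transporter, without CHTF18, where 39 UMIs lay in 7 cells (11.7 and 0.779 CPM). The 6654 cells without 2 UMIs of any marker, whose median depth was 1018 UMIs, had 52 CNGB1-1 UMIs in 35 cells (5.04 CPM). The first 2 values rest on few cells, and SLC17A6 was itself at 582 CPM in gated photoreceptors. CNGB1-1 was at 0 UMIs in the 190 cells with LHX1, a horizontal cell gene, which allows up to 1.58% of such cells to have a UMI (again 3 cells). It was at 0.200 CPM in cells with CHAT, the acetylcholine-synthesising enzyme of starburst amacrine cells, and at 0.141 CPM in cells with SLC6A9, a glycine transporter.

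CNGA3 was spread thinly over the other cell types. It was at 5.33 CPM in cells with GAD1 (exact Poisson interval 4.96 to 5.72), 5.28 CPM in cells with SLC6A5, a neuronal glycine transporter, and 5.83 CPM in cells with CHAT. It was at 4.18 CPM in cells with GLUL, the glutamine synthetase of Müller glia, and 4.08 CPM in cells with RBPMS, an RNA-binding protein of ganglion cells. Among sets of neurons with any CNGA3 UMI, the lowest levels were 1.15 CPM in cells with LHX1, 1.45 CPM in cells with SALL3 and 1.70 CPM in cells with at least 2 CHTF18 UMIs. In the GAD1, SLC6A5, CHAT, GLUL and RBPMS sets CNGA3 thus lay between 4.08 and 5.83 CPM, nearly all as single UMIs. The source of these single UMIs was not tested. Gated cells held 23 CNGA3 UMIs to 325 of CNGB1-1, whereas cells outside held 1019 CNGA3 UMIs to 167 of CNGB1-1.

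**Figure D4:**
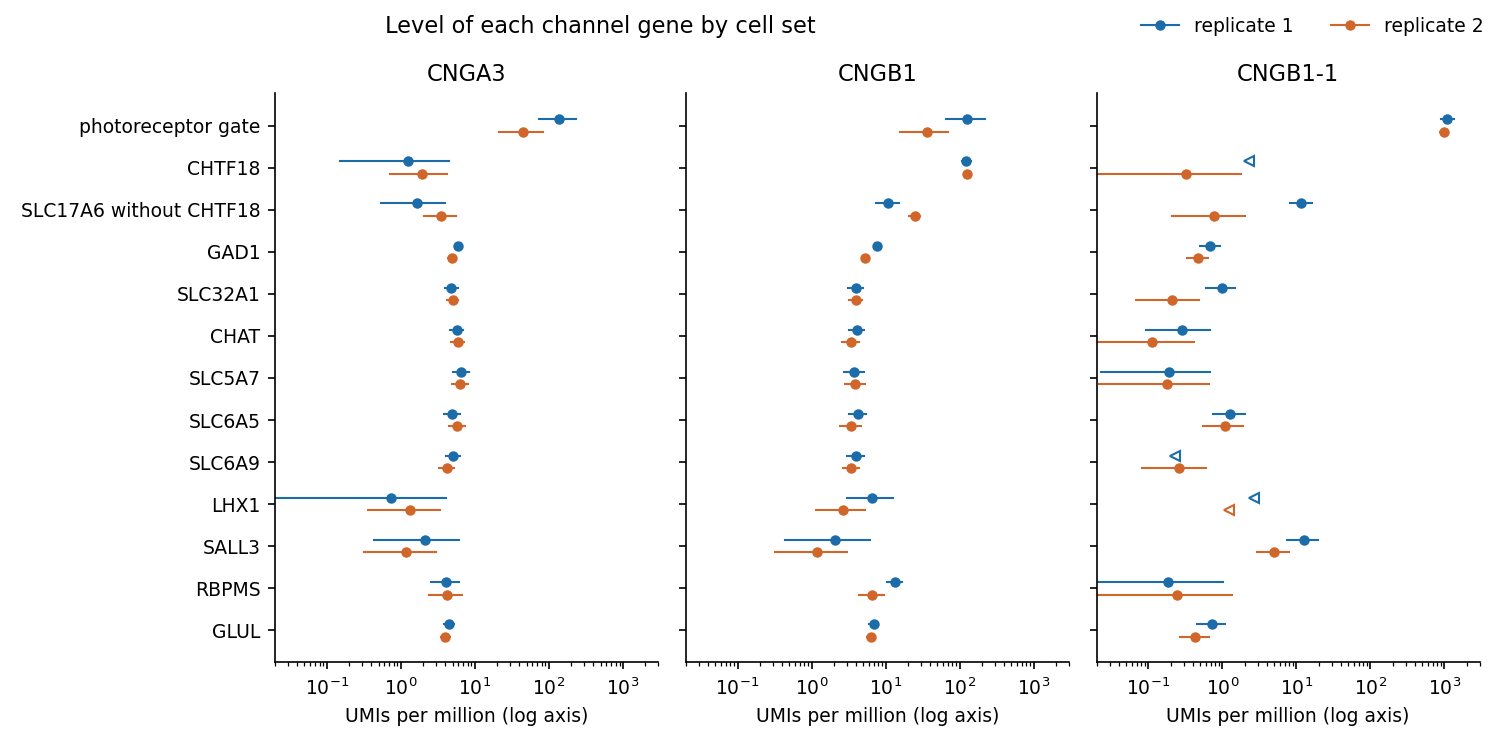
Level in CPM on a log axis of CNGA3, CNGB1 and CNGB1-1 in gated photoreceptors and in marker-defined sets of cells outside the gate, 1 point per replicate with exact 95% Poisson intervals as bars; open triangles mark the upper limit where a set had 0 UMIs. CNGB1-1 is highest in gated photoreceptors, and CNGB1 stands at about the same level in the CHTF18 set of both replicates (124 and 126 CPM).

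CNGB1 had a second site of expression. The 445 cells outside the gate with at least 2 CHTF18 UMIs (141 in replicate 1 and 304 in replicate 2) were 1.55% of outside cells and held 588 of the 1676 outside CNGB1 UMIs (35.1%). CNGB1 was in 258 of these cells (58.0%), 61.7% in replicate 1 and 56.3% in replicate 2, and in 3.07% of the other 28339 outside cells. Its level was 124 and 126 CPM in CHTF18 cells of the 2 replicates, against 6.55 and 4.59 CPM in the rest. CHTF18 cells held SLC17A6 in 95.5% of cells, and cells with SLC17A6 but without CHTF18 had CNGB1 at 10.7 and 24.7 CPM. CNGB1 was lower in the other neuronal and glial sets, at 13.4 and 6.59 CPM in cells with RBPMS, 6.52 CPM over both replicates in cells with GLUL and 6.30 CPM in cells with GAD1. By the number of CHTF18 UMIs in a cell, CNGB1 stood at 5.13 CPM with 0, 17.8 CPM with 1, 102 CPM with 2, 104 CPM with 3 to 4 and 148 CPM with 5 or more.

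**Figure D5:**
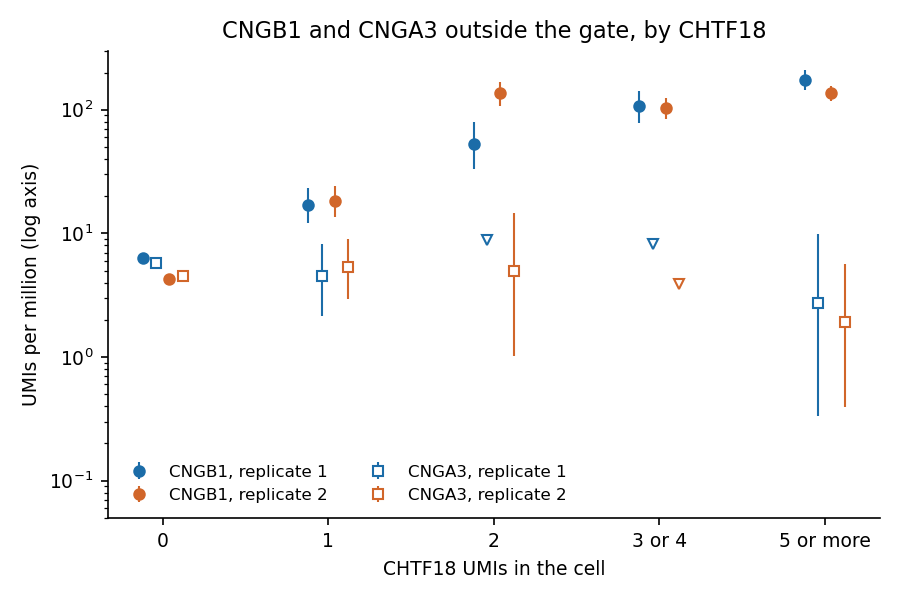
Level in CPM of CNGB1 (filled circles) and CNGA3 (open squares) in cells outside the photoreceptor gate by the number of CHTF18 UMIs in the cell, 1 point per replicate; open triangles mark upper limits where a class had 0 UMIs. CNGB1 is at 5.13 CPM over both replicates in cells without CHTF18 and at 148 CPM in cells with 5 or more, while CNGA3 does not follow.

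In edgeR's quasi-likelihood test between these CHTF18 cells and the rest, with the replicate block, 2130 of 17010 genes (12.5%) were called higher and 2751 (16.2%) lower. The comparison was added after the data were seen, and CHTF18 was itself among the genes most often detected with CNGB1, as ranked below. The calls in it are thus descriptive. CNGB1 had a log2 fold change of 4.62 ± 0.17 (adjusted p = 9.69e-11 by edgeR). CNGA3 was at 1.26 and 1.93 CPM in CHTF18 cells, against 5.68 and 4.58 CPM in the rest, a log2 fold change of −1.46 ± 0.51 (adjusted p = 0.0454 by edgeR). That call rests on 8 UMIs and was lost with DESeq2 (adjusted p = 0.207), without the block (adjusted p = 0.0826 by edgeR) and after thinning (adjusted p = 0.615 by edgeR). CNGB1-1, with 1 UMI in CHTF18 cells, was not called (adjusted p = 0.419 by edgeR). The CHTF18 cells also held genes of the photoreceptor gate. RBP3 was in 12.6% of them (12.8 CPM, against 0.290 CPM in the rest) and CDHR1 in 12.8% (16.8 CPM, against 1.60 CPM), while RCVRN was in 1 cell, ANKRD33B in 2.25% and ARRB1.3 at 3.62 CPM, against 8.85 CPM in the rest. CNGB1 was thus high in CHTF18 cells where ARRB1.3 was low, while 5 of the 6 gated cells with CNGB1 had ARRB1.3.

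Genes most like each channel gene in where they were detected were ranked by the Jaccard index, the number of cells with both genes over the number with either, among 19147 genes and over 28839 cells that share libraries and differ in depth. For CNGB1-1 the first 5 were LOC116956309 (0.189), MSTRG.10646 (0.180), MSTRG.2745 (0.175), LOC116952359 (0.163) and MSTRG.4896 (0.160), none of which was given a symbol here. Chosen after the values were seen, AANAT was eleventh at 0.129. For CNGB1 they were acantho2 (0.215), NDNF (0.201), MSTRG.1495 (0.201), MSTRG.7606 (0.197) and MSTRG.6923 (0.190). Also chosen after the values were seen, the complexins of ribbon synapses CPLX4 (0.183) and CPLX3 (0.179) and CHTF18 (0.180) lay close behind. For CNGA3 the highest values were far lower, 0.0577 for LOC116952686 and 0.0556 for GNAZ. LOC116952686 was in 475 of the 987 CNGA3 cells (48.1%) and in 7715 cells in all. RCVRN, in 206 cells, had an index of 0.0136 with CNGA3. The source of the low values was not tested. Of 49 symbols of phototransduction and photoreceptor genes looked for by exact name, 3 were found, and the remaining ones were not analysed here. AANAT was called higher in gated cells (log2 fold change 9.35, adjusted p = 6.31e-106 by edgeR). ADCY1, an adenylyl cyclase, stood at 160 CPM in gated cells and 85.5 CPM outside (adjusted p = 0.111 by edgeR), and EYS, an extracellular matrix protein of photoreceptors, at 88.1 CPM in gated cells and 34.5 CPM outside (adjusted p = 0.0779 by edgeR), so neither passed the test. The fold change of EYS turned with the replicate, with a log2 value of −2.16 in replicate 1 alone and 1.88 in replicate 2 alone.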

How the data were processed

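Retinas of adult sea lamprey were dissociated with papain, sorted per the labels, and run as 2 biological replicates on the 10x Chromium 3' platform. The authors deposited raw UMI counts per gene and barcode, from Cell Ranger (7.0.1 per the file headers, 6.0.1 per the labels' processing notes) on the kPetMar1.pri genome with a StringTie annotation. Counts summed to 87882951 and 117426390 UMIs in 12933 and 15958 barcodes. Barcodes under 500 UMIs or outside the study's limits on detected genes were removed (30 and 22). The study also removed low-quality cells and contaminated clusters within each cell class and kept fewer cells. That step was not repeated here. The 24 features that pool reads assigned to no gene held 4.14% of UMIs and were kept.

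The members, marker lists and tests were chosen with earlier results of these data known. Named genes were the channel genes, both arrestin genes, the gate genes, a list of 49 photoreceptor symbols, marker genes of other cell types and, for each channel gene, the 5 genes with the highest Jaccard index among genes in at least 10 cells. A set outside the gate held cells with at least 2 UMIs of its marker. UMIs were summed per replicate and cell set and tested with edgeR 4.0.16 in R 4.3.3 (TMM, quasi-likelihood, Benjamini-Hochberg adjusted p under 0.05, filterByExpr or, between arrestin sets, at least 10 UMIs). The replicate was a block because both sums of a replicate come from the same animals and droplet run. DESeq2 1.42.0, other filters and gates, thinning to 500 or 1000 UMIs, no block and leaving out a replicate were alternatives. Scripts were tested on simulated data. The comparison by CHTF18, the gate on 1 of 4 genes, the arrestin sets by more UMIs and the division at 7000 UMIs were added after seeing the data. Doublets were addressed only by the upper limit on genes. Genes split between near-identical copies were not resolved.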

Additional observations from a re-analysis of the deposited data

How the results depend on the processing

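No channel gene's fold change changed sign under the alternatives run. Several other named genes did change sign. In gated against other cells CHTF18 fitted 2.89, and −8.52 after thinning (not called), and EYS turned with the replicate as given above. Between arrestin sets RCVRN had −1.01, and 0.51 with the gate on RCVRN alone. With that gate CDHR1 went from −0.24 to 1.17, AANAT from −0.23 to 0.74, and RBP3 from −0.96 to 0.14. ADCY1 went from −0.59 to 0.09. These 5 genes were called in neither fit, and the list is not complete. The gate decided most values. It held 92 cells without the share limit, 29 with 3 of 4 genes, 206 by RCVRN alone, 139 with 1 of 4 genes (added after seeing the data), and 20 to 35 in a single replicate. A limit of 5 per 1000 left no cell and gives no values. CNGB1-1 was then in 46.7%, 82.8%, 16.0% and 31.7% of gated cells in that order, and in 36.4% and 52.8% after thinning to 500 and 1000 UMIs. CNGA3 was in 7.77% (RCVRN alone), 7.19% (1 of 4 genes), 1.82% and 9.43% (thinning). CNGB1 was in 21.7% (no share limit), 3.64% and 5.66% (thinning). The gate held 1.15% (3 of 4 genes) and 2.88% (RCVRN alone) of CNGA3 UMIs. It held 3.66% (no share limit), 0.472% (3 of 4 genes) and 2.18% (RCVRN alone) of CNGB1 UMIs. It held 43.7% of CNGB1-1 UMIs when the study's limits for photoreceptors were added. Gated cells with CNGB1-1 and another channel gene numbered 2 (no share limit, RCVRN alone), 0 (study's limits, at least 2 UMIs of each) and 0 to 1 in a single replicate. The causes were not tested.

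For gated against other cells, DESeq2 called 618 genes higher and 1102 lower, and thinning 136 and 401. Thinned log2 fold changes were 1.57 for CNGA3 and 1.77 for CNGB1. Leaving out a replicate gave 3.20 to 4.37 for CNGA3, 9.75 to 10.52 for CNGB1-1 and 2.09 to 3.62 for CNGB1. Between ARRB1.3 and ARRB1 cells, genes called higher numbered 2 (DESeq2), 4 (thinning) and 48 (sets by more UMIs). Genes called lower numbered 0 by DESeq2 (75 genes of either direction at an unadjusted p under 0.05), 3 (thinning), 40 (all genes), 50 (RCVRN alone), 50 (no share limit) and 90 (sets by more UMIs). CNGB1-1 fitted −6.70 (DESeq2), −6.17 (thinning), −0.92 (RCVRN alone), −2.18 (no share limit) and −9.65 to −8.25 with a replicate left out. The log2 ratio of CNGB1 levels was 5.75, and 2.53 without the share limit. For CHTF18 cells, thinning called 580 genes higher and 967 lower, and DESeq2 called 1801 lower. CNGA3 fitted −1.50 (DESeq2) and −7.41 (thinning), and CNGB1-1 −8.58 to −0.85 with a replicate left out.

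Both sums of a replicate pair by construction. Without the replicate block, 937 genes were higher and 1620 lower in gated cells, 15 and 20 between arrestin sets, and 1291 and 1470 in CHTF18 cells, where CNGA3 fitted −1.50 and was no longer called. The block changed no other call of a channel gene. Most positive cells of each channel gene have a single UMI, which limits every share given.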
